A study of Homo sapiens with 8 samples.

Results

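The untreated state of MP38 uveal melanoma (UM) cells was read from the 2 control libraries of an 8-library bulk RNA-seq series. MP38 is an established human UM cell line with a BAP1 mutation, so the measurements describe 1 line and not UM at large. The control cells were kept for 24 h in 0.1% DMSO, the solvent that every drug group also carried. The other groups held 2 libraries each of the same cells after 24 h with 40 nM romidepsin, 40 nM quisinostat (both histone deacetylase inhibitors) or 1200 nM mivebresib (a bromodomain inhibitor). The study's methods describe duplicate wells, but the labels do not say how the 2 libraries of a group are related, so p-values measure only the spread between these samples of 1 line, which may be technical. Control 1 held 29359024 counts and control 2 held 29147977, within the range of 28483235 to 29359024 over all 8 libraries.

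UM arises from melanocytes of the eye, pigment cells that descend from the neural crest. Melanocyte identity rests on the factor MITF with its partners SOX10 and PAX3, and MITF switches on pigment genes through short E-box sequences near their starts. Most UM carry an activating mutation of the G protein subunits GNAQ or GNA11. Loss of the deubiquitinase BAP1 marks the tumours with a high risk of spread, which a clinical panel of 12 genes places in class 2.

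The windows before the starts of pigment genes were searched for the E-box forms CATGTG and CACGTG and for TATAAA, because MITF binds such E-boxes. RefSeq promoter windows on GRCh38.p14 were found for 16 of the 20 pigmentation genes of the list, and 8 of the 16 held CATGTG on either strand in the 250 bases before the start, against 9.54% of 27305 windows in the whole table and 9 of 20 HOX windows, which serve as a second family. None of the 16 held CACGTG, found in 6.49% of all windows, nor TATAAA, found in 11.1%. The 8 genes were TYRP1, TYR, GPNMB, GPR143, SLC24A5, OCA2, MC1R and TRPM1. PMEL, SLC45A2, RAB38 and ABCB5 had no window. One window is given for each gene, which for MITF, a gene with several starts, is 1 of them, and the DCT window did not coincide with the GENCODE start. The last 160 bases are shown for TYRP1, the pigment gene with the highest level, for tyrosinase (TYR), which held the motif as well at a low level, and for GPNMB and SLC24A5 between them, with CATGTG or its reverse complement CACATG in capitals. They lie at chr9:12693225-12693384, plus strand (TYRP1), chr7:23246615-23246774, plus strand (GPNMB), chr15:48120830-48120989, plus strand (SLC24A5) and chr11:89177715-89177874, plus strand (TYR).

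TYRP1: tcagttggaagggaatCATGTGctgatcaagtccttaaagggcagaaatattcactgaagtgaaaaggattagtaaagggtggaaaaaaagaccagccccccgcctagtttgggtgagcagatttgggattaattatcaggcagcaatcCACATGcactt

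GPNMB: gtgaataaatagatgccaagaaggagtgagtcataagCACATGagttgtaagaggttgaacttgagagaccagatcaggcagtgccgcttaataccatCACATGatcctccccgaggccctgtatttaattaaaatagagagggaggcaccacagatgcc

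SLC24A5: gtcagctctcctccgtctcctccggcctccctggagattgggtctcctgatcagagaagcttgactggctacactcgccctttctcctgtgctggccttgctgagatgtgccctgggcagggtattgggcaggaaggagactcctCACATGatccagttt

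TYR: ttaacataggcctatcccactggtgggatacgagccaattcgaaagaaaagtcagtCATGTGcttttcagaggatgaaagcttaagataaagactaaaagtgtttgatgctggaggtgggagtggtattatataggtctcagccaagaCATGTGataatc

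TYRP1, TYR and GPNMB each held 2 copies and SLC24A5 held 1. With the same number of copies, TYRP1 stood at 900.2 ± 188 CPM per kb and TYR at 0.817 ± 0.357 (mean ± SD, n = 2). CPM is the count of a gene scaled to a library of 1e+06 counts, and levels of different genes are compared here only after division by the length of their exons in kilobases (CPM per kb).

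Pigment genes ranged from 0.0113 to 900.2 CPM per kb in the control. TYRP1, a melanosomal enzyme, had 2869 and 3866 CPM in control 1 and control 2 and ranked 20 among protein-coding genes per kb. GPNMB, a melanosome glycoprotein, had 1087 and 1563 CPM, and PMEL, which forms the fibrils on which pigment is laid down, had 404 and 553 CPM. MLANA, the Melan-A antigen, had 211 and 181 CPM. SLC45A2, a melanosomal transporter, had 156 and 226 CPM. Per kb these followed the order TYRP1 (900.2), GPNMB (219), PMEL (123), QPCT (86.1), MLANA (63.5) and SLC45A2 (58.5). PMEL at 104 to 142 and QPCT at 75.7 to 96.6 CPM per kb did not overlap, and MLANA at 58.6 to 68.4 overlapped SLC45A2 at 47.8 to 69.2.

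TYR and DCT, the other enzymes of melanin synthesis in the list, were low. Tyrosinase (TYR), the rate-limiting enzyme, had 50 and 94 counts in the 2 libraries, or 1.70 and 3.22 CPM. DCT, the dopachrome tautomerase, had 4 and 1 counts, at the limit of detection. MITF itself had 337 and 328 CPM, and its level in the 2 libraries did not differ beyond the spread of replicates. In the middle range per kb stood RAB38 (22.1), GPR143 (17.1), RAB27A (14.8), SLC24A5 (11.9), OCA2 (11.3), MREG (8.62) and ABCB5 (4.73). MC1R, the melanocortin receptor, had 1.49 CPM per kb, and BCAN, TRPM1 and CAPG had 0.680, 0.543 and 0.124. Of the 20 genes, 18 reached 1 CPM in both libraries, beside 61.0% of all symbols matched to protein-coding genes.

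Neural crest and melanoblast factors were mostly on, at 1 CPM or more in both libraries for 22 of 25, beside 61.0% of protein-coding symbols. SOX10 led with 53.6 ± 3.52 CPM per kb, followed by the receptor tyrosine kinase KIT (44.3 ± 11.4), ETS1 (38.4 ± 0.987) and PAX3 (21.4 ± 0.469). SOX10 had 208 and 189.6 CPM and PAX3 173 and 167 CPM in the 2 libraries. TFAP2B had 0 counts in both libraries and SOX5 had 2 and 1. The levels of pigmentation, neural crest, risk and driver genes in each library are plotted side by side.

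**Figure D1:**
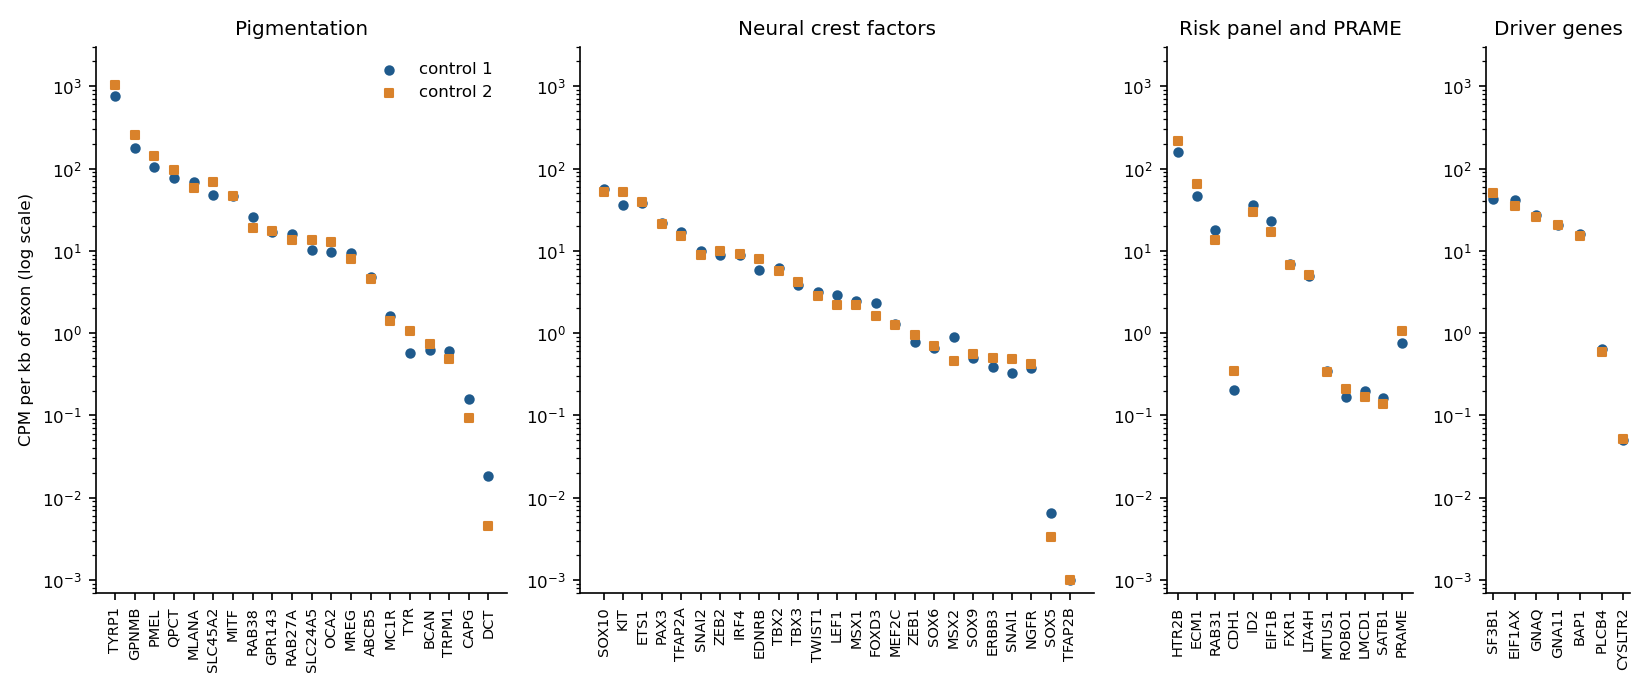
Level of each gene in control 1 (circles) and control 2 (squares), in CPM per kb of exon on a log scale, for pigmentation genes, neural crest factors, the class 2 risk panel with PRAME, and driver genes; a value of 0 is drawn at 0.001. TYRP1 stands highest at 900.2 and DCT lowest of the pigmentation genes at 0.0113 (means of both libraries).

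The genes of the risk panel that are high in class 2 were themselves unequal. HTR2B, a serotonin receptor, had 361 and 490.4 CPM (189.6 ± 40.7 CPM per kb). It lies at chr2:231108230-231125118 on hg38 inside PSMD1 on the opposite strand, and although the labels call the libraries strand-specific, the strand setting of the counting is not given in the sources used here, so reads of the pair cannot be told apart where they overlap. ECM1, an extracellular matrix protein, had 156 and 218 CPM (55.6 ± 13.1 CPM per kb), and the small GTPase RAB31 had 98.6 and 76.1 CPM (15.6 ± 2.85 CPM per kb). CDH1 (E-cadherin), the fourth gene that is high in class 2, had only 37 and 62 counts.

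Of the 8 genes that class 2 tumours lower, the transcriptional inhibitor ID2 (80.1 and 65.4 CPM, 32.99 ± 4.72 per kb) and the translation factor EIF1B (43.5 and 32.5 CPM, 19.9 ± 4.06 per kb) were the highest. FXR1 and LTA4H had 6.82 ± 0.130 and 5.03 ± 0.0520 CPM per kb. MTUS1, ROBO1, LMCD1 and SATB1 lay between 0.149 and 0.344 CPM per kb, each under 5 CPM in both libraries. The median level was 35.6 CPM per kb for the 4 genes high in class 2 and 2.69 for the 8 genes low in it, beside 3.87 over the 15085 genes tested. The panel's reference genes MRPS21, SAP130 and RBM23 stood at 26.2, 13.2 and 4.37 CPM per kb. PRAME, a cancer-testis antigen used as an added risk marker (chr22:22547701-22559361, hg38), had 85 and 118 counts, 2.90 and 4.05 CPM. Per kb it stood at 0.920 CPM, below the 3.87 over the genes tested. The paper counts MP38 as a line without PRAME expression, unlike MP41 and MP46, and states no threshold for this.

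All 7 driver genes of UM gave reads, at unequal levels. The splicing factor SF3B1 had 391 and 465 CPM and 46.7 ± 5.72 CPM per kb, and the translation factor EIF1AX 185 and 157 CPM and 38.6 ± 4.45 per kb. GNAQ (chr9:77716087-78031458, hg38) had 179.7 and 173 CPM and its paralog GNA11 (chr19:3094410-3124004) 128 and 130.1 CPM, or 26.6 ± 0.732 and 20.7 ± 0.245 CPM per kb. BAP1 (chr3:52401013-52410350) had 80.4 and 77.2 CPM and 15.6 ± 0.446 CPM per kb, so its transcript was present in this BAP1-mutant line. The other Gq pathway drivers were low. PLCB4, the phospholipase below Gq, had 4.46 and 4.08 CPM, and CYSLTR2, the receptor above it, had 8 and 8 counts. Counts per gene carry no base changes, and the mutated allele was not analysed here.

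Effectors below Gq carry its signal to small GTPases and protein kinase C. RHOA (284 ± 46.7 CPM per kb), RAC1 (153 ± 27.7), the exchange factor TRIO (38.6 ± 5.68) and focal adhesion kinase PTK2 (29.3 ± 0.231) led the 20 effectors, 18 of which reached 1 CPM in both libraries. All 18 genes of the MAPK output and feedback list were on, and of all protein-coding symbols 61.0% were. CCND1 (cyclin D1) led that list with 1559.5 and 1576 CPM and 325 ± 2.40 CPM per kb, then IER3 (84.3), FOSL1 (31.01) and EPHA2 (19.3). YAP1 (39.9 CPM per kb) and its targets CYR61 (170.1) and CTGF (113) were also high. The 15 genes of the YAP and TEAD list ranged from 0.255 to 170.1 CPM per kb with a median of 12.2, so not all members were high. Of receptor kinases and RAS pathway genes of cutaneous melanoma, MET led with 681 and 972 CPM (117 per kb), with NRAS at 30.3 and HRAS at 15.1 CPM per kb.

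The drugs of the series act on histone deacetylases and on BET bromodomain proteins, and both families were read in the control. HDAC1 had 139 and 136 CPM and, at 34.7 ± 0.506 per kb, the highest level of the 11 class I, II and IV HDAC genes. HDAC3 (13.2 ± 2.27), HDAC2 (9.82 ± 0.142), HDAC7 (8.06 ± 0.219), HDAC5 (7.74 ± 0.0395) and HDAC9 (7.26 ± 0.858) followed per kb, and HDAC4 (3.53), HDAC11 (2.17), HDAC6 (1.89), HDAC10 (1.76) and HDAC8 (0.534) were lower. Among the BET bromodomain proteins, BRD2 (22.8 ± 0.684 CPM per kb) stood above BRD3 (3.51 ± 0.197), with no overlap of libraries between them. BRDT, the testis member, had 1 and 0 counts.

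Energy metabolism supplied many of the strongest transcripts. The 13 protein-coding genes of the mitochondrial genome held 3.59% and 4.46% of counts in control 1 and control 2, against 4.2% to 5.09% in the drug libraries. MT-CO2 (8886 CPM per kb), MT-CO3 (8079), MT-CO1 (7276), MT-ND4 (3909) and MT-CYB (2446) were the 5 highest protein-coding genes per kb of the union of exons. Apart from mitochondrial genes, the highest by that length were FTH1 (2429.7, ferritin heavy chain), MTRNR2L12 (2368), EEF1A1 (2064) and ACTB (1796). This order depended on the length used. Per kb of the median transcript, ACTB (8837), IGFBP5 (6839), EEF1A1 (6812), FTH1 (6267) and FLNA (6252) stood above MT-ND4 (3909) and MT-CYB (2446). MTRNR2L12 is a nuclear copy of mitochondrial ribosomal sequence and its value is uncertain. By counts alone the order was EEF1A1 (1.23% of counts), MT-CO1 (1.12%), FN1 (0.686%), MT-CO3 (0.633%) and ACTB (0.632%). MT-CO2, FLNA, MT-ND4, FTH1 and IGFBP5 completed the first 10, which together took 6.63% and 7.36% of counts when ranked in each library.

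The counts of genes on that follow stand beside 61.0% of all protein-coding symbols. All 21 glycolysis genes were on, led by GAPDH (996 CPM per kb), ALDOA (477), ENO1 (361) and PKM (274). The TCA cycle list was on in full, led by MDH2 (91.1) and SDHA (75.3), as were 20 of the 21 nuclear respiratory chain genes, led by ATP5B (330.4) and CYC1 (162). PPARGC1A, a coactivator of mitochondrial growth, had 1 and 2 counts. All 24 cholesterol synthesis genes reached 1 CPM, led by CYP51A1 (122) and SQLE (92.4), and the fatty acid list was led by the desaturase SCD with 1599 and 2308 CPM (364 per kb). PSAT1 (90.1) and TYMS (57.5) led the serine and one-carbon list. All 27 DNA replication and all 25 mitosis genes were on as well, with PCNA (118), MCM6 (37.6), TPX2 (43.1) and TOP2A (37.9) among the highest.

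Stress and survival genes stood at unequal transcript levels in DMSO, from 0 counts upwards. MCL1 (51.97 CPM per kb) and BCL2L1 (41.5) stood above BCL2 (6.02), while BCL2A1, an MITF target in melanocytes, had 0 counts in both libraries. CCNG1 (162), RRM2B (99.6) and CDKN1A (90.8) led the p53 targets. Of hypoxia genes CA9 had 0 counts, and P4HA1 (47.8) and NDRG1 (47.3) were the highest. Of antigen presentation genes B2M had 53.7 CPM per kb, whereas the class II genes HLA-DRB1 and HLA-DPA1 had 1 and 3 and 1 and 3 counts. Near-identical HLA genes share reads, and their split is uncertain.

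Of all symbols, 34.3% reached 1 CPM in both libraries, and of those matched to protein-coding genes 61.0%. Of the markers of other cell types it was 6 of 14 for Schwann and glial cells, 2 of 15 for neurons, 3 of 10 for the retinal pigment epithelium, 1 of 10 for photoreceptors, 4 of 11 for fibroblasts, 1 of 13 for leukocytes and 3 of 13 for epithelium. A gene is called silent here at no more than 3 counts in each control library, or 0.102 and 0.103 CPM. A count of 0 allows up to 3 counts by counting error alone. No endothelial, hepatocyte or muscle marker reached 1 CPM in both libraries, and their summed levels were 1.12 and 1.75, 0.886 and 1.20, and 1.43 and 1.13 CPM. Of 13 leukocyte markers, CD68, a lysosomal protein, alone reached 1 CPM (63.3 and 77.9 CPM), with CD3D and CD3E at 0 counts and PTPRC at 4 and 3. Of 13 epithelial markers EPCAM had 0 and 1 counts and KRT5 had none, but the splicing regulator ESRP1 had 25.1 and 16.8 CPM. Of 11 fibroblast markers LUM and POSTN had 0 counts, COL3A1 1 and 0 and THY1 1 and 0, with FAP at 88.2 and 114 CPM. The retinal pigment epithelium, the other pigmented layer of the eye, has its own markers. RPE65 had 2 and 0 counts and RLBP1 and OTX2 none, beside SERPINF1 at 302 and 384 CPM. ARR3, GNAT1 and PDE6H of the photoreceptor list had 0 counts, GNAT2 0 and 1 and RCVRN 3 and 3. CRX, a photoreceptor factor counted here with the retinal pigment epithelium list, had 3 and 0. The neuronal genes ELAVL4 and DCX had 0 counts, and ELAVL3, STMN2 and CHGA at most 2, with TUBB3 at 77.4 and 71.7 CPM. Of glial genes the myelin gene PMP22 was on (85.6 and 101 CPM), while AQP4 had 0 counts and GAP43 0 and 1. In bulk RNA, fewer cells of a type and less RNA per cell cannot be told apart.

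**Figure D2:**
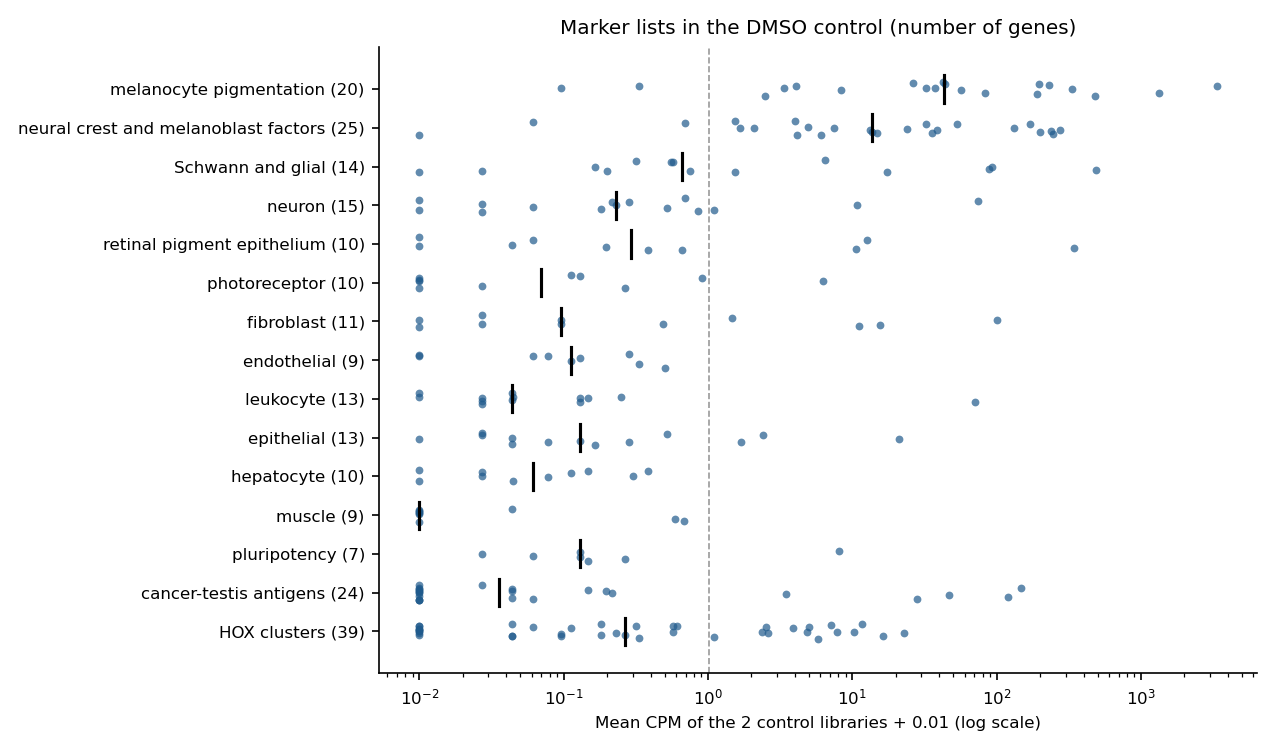
Each point is 1 gene of a marker list at its mean CPM over both control libraries plus 0.01, on a log scale, with the list's median as a bar and 1 CPM as the dashed line. The medians of the pigmentation and neural crest lists lie above 1 CPM, and the medians of the other lists lie below it.

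Silent genes made up 19566 of 35238 symbols in the table, 15967 of them with 0 counts in both libraries, and 12074 symbols reached 1 CPM in both. Of 19191 symbols matched to protein-coding genes, 11698 (61.0%) were on and 4848 (25.3%) were silent. Of all counts, 50% fell on 862 genes and 90% on 5286. In the RefSeq windows, the promoters of protein-coding genes that were on had a median observed to expected CpG ratio of 0.833 (9190 windows), against 0.286 for silent genes (3457 windows). TATAAA stood in 4.64% of the first and 19.4% of the second, and CATGTG in 5.32% and 11.5%.

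Of 39 HOX genes, which set position along the body, 14 were on and 13 silent. The HOXC cluster led with HOXC9 (13.6 ± 2.82 CPM per kb), HOXC8 (5.43 ± 0.535), HOXC10 (5.02 ± 1.23) and HOXC6 (4.64 ± 0.0924). HOXA2, HOXA3, HOXA4, HOXA6, HOXA7, HOXA9, HOXB1, HOXD1 and HOXD12 had 0 counts in both libraries, HOXA5 2 and 0, HOXC11 3 and 0, and HOXB2 1 in each. The 9 silent HOX promoters with a window had a median CpG ratio of 0.90, higher than the median of the promoters that were on. Cancer-testis antigens split likewise, with 16 of 24 silent and MAGEA3 (154 and 139 CPM), MAGEA6 (124 and 115), MAGEA12 (49.3 and 44.7) and MAGEA2 (27.3 and 28.96) on. These MAGEA genes are near-identical copies, so the division of reads among them is uncertain. MAGEA4, MAGEB2, CTAG1B, CTAG2, SSX1, SSX2, GAGE2A, XAGE1A, XAGE1B, DDX4 and DAZL had 0 counts, and SSX4, MAGEA1, CTAG1A, GAGE1 and SYCP1 had at most 3 counts in all. Of 7 globin genes, 2 reached 1 CPM in both libraries and 5 were silent, with HBB and HBD at 0 counts. MYOD1, MYOG and MYF5 also had 0 counts.

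The 2 control libraries disagreed more than any drug pair. The median absolute log2 difference over 15085 genes was 0.233 between control 1 and control 2, against 0.119, 0.111 and 0.131 within the romidepsin, quisinostat and mivebresib pairs. For genes over 100 CPM the median was 0.216 in the control against 0.0807, 0.0875 and 0.0868. In edgeR's quasi-likelihood test, with the drug pairs supplying the spread on 3 residual degrees of freedom, 842 genes were higher in control 2 (5.58% of those tested) and 463 were lower (3.07%) at a Benjamini-Hochberg adjusted p below 0.05. This assumes that a lone control library varies as the drug replicates do. The calls were lost when the replicate number was added to the fit as a block. That fit asked another question, the control difference beyond the replicate difference shared by the drug pairs, on fewer residual degrees of freedom. The adjusted p of the called genes lay close to the threshold, the lowest at 0.0299, and 68 genes also differed by at least 1 on the log2 scale, 22 higher and 46 lower. Without the filter on low counts 0 genes passed, with 3939 at an unadjusted p below 0.05 against 3993 with it. Leaving out quisinostat replicate 1 or 2 from the spread left 542 and 533 higher and 302 and 296 lower. The same test put on each drug pair called 0 genes, with 186, 95 and 409 at an unadjusted p below 0.05, but there the control pair counted towards the spread. The split between higher and lower depended on scaling, with 64.5% of calls higher in control 2 by TMM factors, 53.3% by upper-quartile factors and 47.1% by library size alone.

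**Figure D3:**
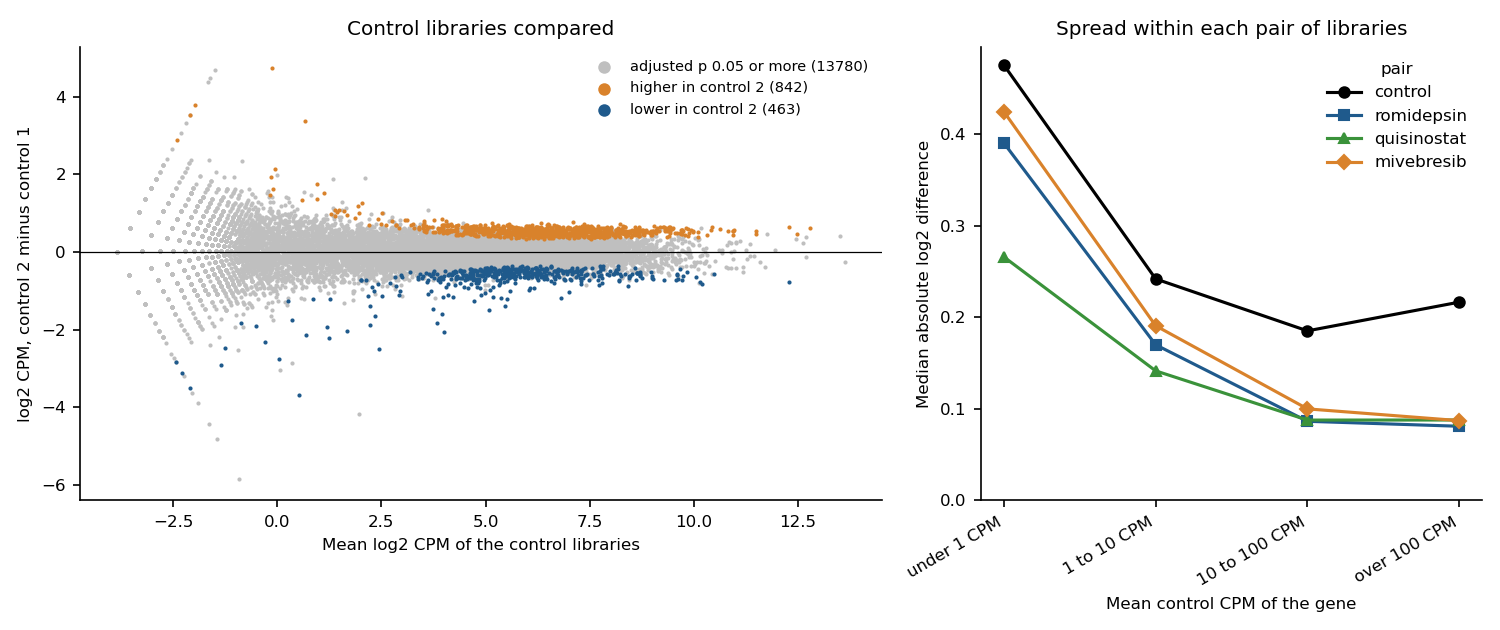
Left, log2 CPM of control 2 minus control 1 against the mean of both for 15085 genes, with genes at an adjusted p below 0.05 coloured (842 higher and 463 lower in control 2). Right, the median absolute log2 difference within each pair of libraries by level of the gene, where the control pair is highest in each of the 4 level classes (0.216 over 100 CPM, against 0.0807 to 0.0875 for the drug pairs).

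Of 25 genes of the extracellular matrix and adhesion tested, 17 were higher in control 2 and 24 were positive, with a median log2 difference of 0.57 beside 0.00 over all genes, of which 5.58% were higher. Calls depended on level, since 16.3% of all genes over 100 CPM were higher in control 2 and 5.02% lower, and 11 of the 15 matrix genes over 100 CPM were higher. Fibronectin (FN1) had 5471 and 8249 CPM (log2 difference 0.63 ± 0.17 SE, edgeR adjusted p = 0.0456), and the matrix protein SPARC 776 and 1126 CPM (0.57 ± 0.11). CD44, CD63, TIMP2, ITGB1, MMP14, MCAM, LAMC1, CDH2, L1CAM, ITGB3, ITGA4, COL6A1, COL6A2, COL4A1 and COL4A2 rose with them, between 0.44 and 0.70. COL4A1 and COL4A2 overlap each other on opposite strands.

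The unfolded protein response list, largely chaperones of the endoplasmic reticulum, was higher in control 2 for 10 of 16, with 15 positive and a median of 0.50, against 5.58% of all genes. Over 100 CPM it was 8 of 10, against 16.3% of all genes at that level. HSPA5 (BiP), the main chaperone of that compartment, had 497 and 751 CPM (log2 difference 0.63 ± 0.15, edgeR adjusted p = 0.0356). CANX, CALR, HSP90B1, PDIA4, PDIA6, HYOU1, SEL1L, DNAJB9 and DNAJC3 were the others, between 0.48 and 0.65. XBP1, a transcription factor of the same response, had 122 and 146 CPM and did not pass.

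Sterol and lipid genes passed in the same direction. Of 24 cholesterol genes 10 were higher and 0 lower, with a median of 0.24, against 5.58% and 3.07% of all genes. Over 100 CPM 8 of 13 were higher. CYP51A1, a demethylase of the sterol pathway, had 362 and 511 CPM (0.53 ± 0.12) and SQLE, the squalene epoxidase, 326 and 469 CPM (0.56 ± 0.10). MSMO1, SREBF2, DHCR7, SC5D and EBP were also among the 10. Of 13 fatty acid genes, SCD, ELOVL5, ACSL3, FADS1 and ACACA passed, with a median of 0.36 over the list.

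Called higher in other lists were the pigmentation genes GPNMB, PMEL, SLC45A2 and SLC24A5 (4 of 19, and 3 of the 7 over 100 CPM), the receptors KIT, MET, IGF1R, ERBB2, PDGFRA, EPHA2 and EPHA4, and the glucose and lactate carriers SLC2A1, SLC2A3, SLC16A1 and SLC16A3. The amino acid carriers SLC7A5, SLC3A2 and SLC7A11 were higher too, as were 5 of 18 antigen presentation genes, among them HLA-C, TAPBP, TAP2 and CD276. With 5.58% of all genes and 16.3% of those over 100 CPM higher, counts this small are not read as results about either list. Of the risk panel, HTR2B (0.48 ± 0.12, edgeR adjusted p = 0.0411) and ECM1 (0.52 ± 0.11, edgeR adjusted p = 0.0328) were higher in control 2, so the SD given with their levels holds that difference. SERPINF1, FAP, CYR61, GDF15, TNFRSF10B, P4HA1, ADM, LOX, MKI67, CENPF and MT-CYB were the other list members higher in control 2. Soluble glycolytic enzymes gave no call, with GAPDH at 3275 and 2661 CPM and ENO1 at 1917 and 1889.

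In the other direction, 3.07% of all genes were lower in control 2, and 5.02% of those over 100 CPM. All 18 genes of the ribosomal and translation list, each over 100 CPM, were below 0 with a median of -0.43. Of these, RPS2, RPLP1, TPT1, RPL13 and RPL5 passed. The number that passed ranged from 3 with limma-voom to 15 with DESeq2, with 11 by library size alone. RPLP1 fell from 776 to 459 CPM (log2 difference -0.72 ± 0.11, edgeR adjusted p = 0.0328). NDUFA4, COX7C and COX7A2 passed among 21 nuclear respiratory chain genes (median -0.22), or 6 with DESeq2, while all 13 genes of the mitochondrial genome were positive (median 0.29). Ferritin was lower too, FTH1 with 6271 and 3594 CPM and FTL with 950.5 and 559 CPM. The other list members lower in control 2 were HRAS, JUND, ATF4, CEBPB, HSPE1, PHLDA3, PCGF1, PTTG1, UBE2C, CENPA, TYMS, ESRP1, HOXA11 and IFIT1.

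Of 23 interferon-stimulated genes, 20 were below 0 with a median of -0.45, and IFIT1 alone passed, 1 gene against 3.07% of all genes, at 24.05 and 10.8 CPM (-1.12 ± 0.23, edgeR adjusted p = 0.0328). CMPK2, a neighbour of the interferon gene RSAD2 on the opposite strand, had 8.52 and 2.61 CPM and passed (-1.67 ± 0.31).

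**Figure D4:**
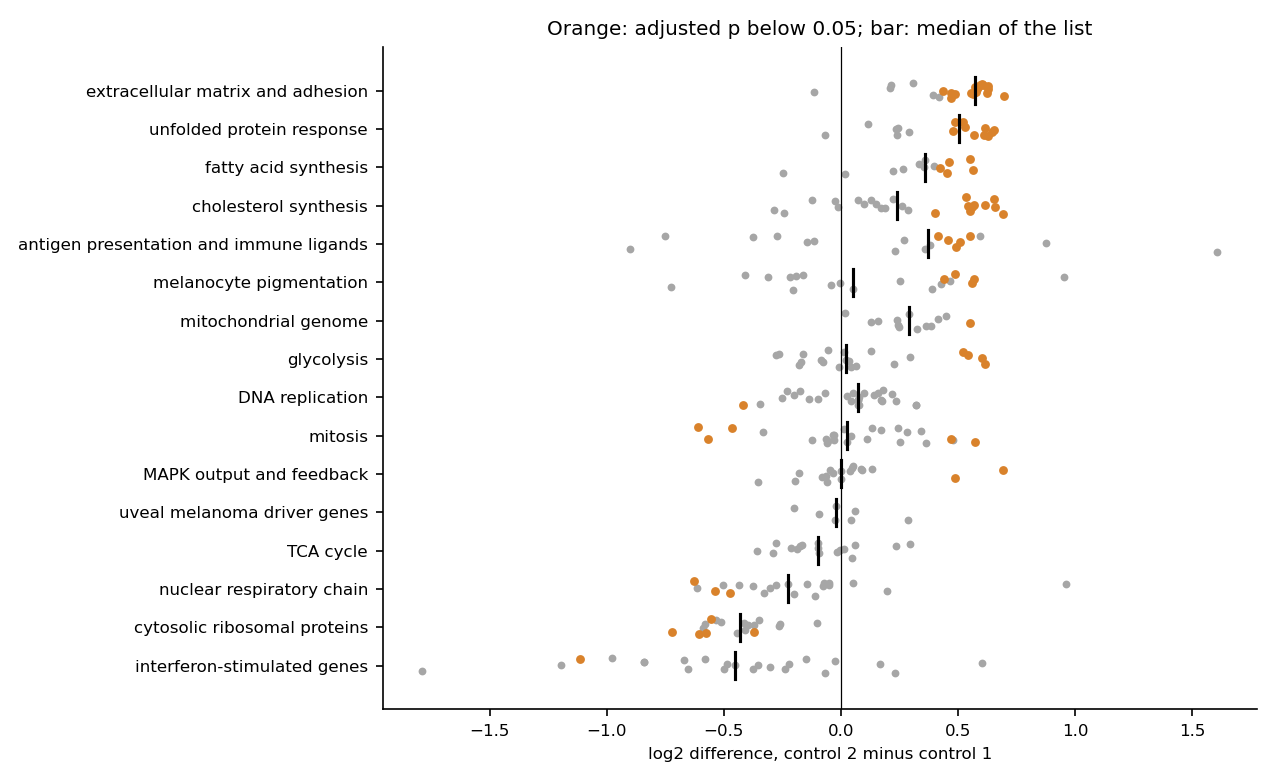
Log2 difference of control 2 minus control 1 for the members of 16 gene lists, with genes at an adjusted p below 0.05 in orange and the median of each list as a bar. The median is 0.57 for extracellular matrix and adhesion, 0.50 for the unfolded protein response and -0.43 for ribosomal and translation genes.

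The largest single differences had unlike sizes in the 2 directions. Among called genes at a mean of 5 CPM or more, the 12 largest rises lay between 0.75 and 1.02 on the log2 scale and the 12 largest falls between -1.18 and -2.54. VASN, a membrane-bound trap of TGF-beta, led the rises with 3.78 and 7.48 CPM. PCDHB13, SPPL2B, PCDHB7, SLITRK4, CUBN, NPTX2, CRELD1, NOTCH2, COL12A1 and ABCA5 were among those that followed. NOTCH2 was the most abundant of them at 102 and 168 CPM. Among the falls, the bZIP factor CEBPB had 54.3 and 18.9 CPM (-1.48 ± 0.21), the Notch target HES4 25.8 and 7.03 CPM (-1.84 ± 0.25), the keratin KRT10 68.3 and 25.5 CPM (-1.39 ± 0.15) and the neuropeptide GAL 39.6 and 16.02 CPM (-1.27 ± 0.22). AC255361.1, C17orf89, CTXN1, PRR7, NUDT8, ATP5D, MMP24-AS1 and CMPK2 were the others. The largest falls, AC255361.1 (-2.54 ± 0.66) and C17orf89 (-2.08 ± 0.50), also varied within drug pairs. AC255361.1 had 2.58 and 9.71 CPM with romidepsin and 9.22 and 7.51 with mivebresib. C17orf89 had 5.71 and 17.1 CPM with quisinostat and 15.6 and 15.3 with mivebresib. Reads of VASN, SPPL2B, ABCA5, KRT10, CMPK2 and MMP24-AS1 cannot be told apart by strand from genes that overlap them.

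Transcript length moved with the difference. The Spearman correlation of length with the log2 difference, library 2 minus library 1, was 0.34 in the control pair. It was -0.22, 0.25 and 0.27 in the romidepsin, quisinostat and mivebresib pairs, so a trend with length was not particular to the control. Genes higher in control 2 had a median exon length of 6784 bases, genes lower 2640, and all genes tested 5034. With 14627 genes split by length into 3 equal groups, 8.96% of the longest were higher and 0.80% lower, and of the shortest 2.69% were higher and 6.71% lower. With length and GC content removed as offsets, 696 genes were higher and 412 lower, and 13 of 25 matrix genes, 11 of 16 unfolded protein response genes and 12 of 24 cholesterol genes passed, with medians of 0.46, 0.54 and 0.38. Of all calls, 839 were made in both fits, 466 were lost and 269 were gained. Of the genes called in the first fit, 11 of 17 matrix genes, 9 of 10 unfolded protein response genes, 10 of 10 cholesterol genes and 4 of 5 ribosomal and translation genes were called again. Other lists kept fewer, with 1 of 5 for receptor kinases and RAS genes, 0 of 5 for mitosis, 0 of 3 for nuclear respiratory chain genes and 3 of 5 for fatty acid genes. In all, 33 of the 100 list members called did not pass with the offsets. They were FN1, COL4A1, ITGA4, CD44, MCAM, TIMP2, CANX, GPNMB, PDGFRA, FAP, EPHA2, ERBB2, IGF1R, HRAS, PCGF1, MKI67, CENPF, CENPA, UBE2C, PTTG1, NDUFA4, COX7A2, COX7C, ACACA, ELOVL5, TYMS, ATF4, HSPE1, LOX, PHLDA3, JUND, RPS2 and HOXA11. What the 2 libraries differed in beside length was not tested.

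Against the 6 drug libraries, control 1 was more often the one that stood out. For the 463 genes lower in control 2, the mean of the drug libraries lay nearer to control 2 in 79.0%, and control 1 alone lay outside the range of all drug libraries in 51.6%, against 10.6% for control 2 alone. For the 842 genes higher in control 2 the drug mean lay nearer to control 2 in 57.7%, with control 1 alone outside in 36.3% and control 2 alone in 24.7%. These are descriptions, since the drugs move many of the same genes.

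None of the 7 drivers, 11 HDAC genes or 3 tested BET genes passed the test between the libraries, nor did MITF (337 and 328 CPM), SOX10, PAX3, MLANA, CCND1 or MYC (98.1 and 94.7 CPM). With the offsets for length and GC content 3 of the 11 HDAC genes did pass. A p above the threshold does not show that levels were equal. Of 27 DNA replication genes TYMS alone passed. Over all genes 5.58% were higher and 3.07% lower, so absent or single calls are not read as results about these lists.

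The control mean was tested against the mean of the 3 drug groups, which 1 group can carry. At an adjusted p below 0.05 and an absolute log2 difference above 1.5, 88 genes were higher in the control (0.583% of those tested) and 759 were lower (5.03%), or 35 and 165 among genes at a mean of at least 5 CPM. Genes near 0 in the control passed the filter on low counts only through a drug group. Such genes could only come out lower in the control, so the 2 counts are not set against each other. Among the genes higher in the control was DHRS3, a retinaldehyde reductase, at 32.4 and 36.98 CPM in the control, 14.4 and 16.2 with romidepsin, 3.84 and 3.99 with quisinostat and 1.53 and 1.26 with mivebresib. RHOJ, a small GTPase, had 126 and 104 CPM in the control, 66.7 and 75.3 with romidepsin, 76.3 and 72.2 with quisinostat and 3.79 and 3.90 with mivebresib. IL7R, the interleukin 7 receptor, had 43.5 and 61.00 CPM in the control, 32.8 and 28.2 with romidepsin, 28.3 and 27.2 with quisinostat and 1.91 and 1.90 with mivebresib. No drug library reached the level of either control library for these 3 genes, and IL7R was also higher in control 2 than in control 1 (0.52 ± 0.12, edgeR adjusted p = 0.0329). B3GALT2 (3.11 ± 0.11), SCG5 (2.40 ± 0.19) and ESRP1 (2.21 ± 0.14) were the others by size. ESRP1 had 25.1 and 16.8 CPM in the control, 19.1 and 19.1 with romidepsin, 11.9 and 11.1 with quisinostat and 0.487 and 0.527 with mivebresib, so its romidepsin libraries lay between the 2 control libraries. Of the pigmentation list, ABCB5, a transporter of melanoma cells, passed at 44.9 and 42.6 CPM in the control, 44.7 and 41.4 with romidepsin, 15.2 and 14.5 with quisinostat and 2.51 and 3.34 with mivebresib, so its romidepsin libraries overlapped the control.

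Among the genes lower in the control, KIF5C, a neuronal kinesin, had 2.08 and 2.95 CPM in the control, 50.3 and 45.3 with romidepsin, 201 and 217 with quisinostat and 34.2 and 36.3 with mivebresib. HPCAL4 had 4 and 7 counts in the control, RAB39B 6 and 2, PARM1 3 and 6, CDK5R2 14 and 12 and SNCB 6 and 8, and their fitted differences of -5.65 to -4.25 rest on these few counts. The neuron markers SYN1, SYP, NEFL, NEFM, NEFH, SLC17A7 and CHGA were also lower in the control, where CHGA had 1 and 0 counts, NEFL 3 and 7 and SYN1 7 and 5. Genes this low entered the test through the drug groups, so their number says nothing about the list. NGFR, a neural crest receptor, had 1.57 and 1.75 CPM in the control, 6.50 and 6.66 with romidepsin, 34.8 and 38.9 with quisinostat and 16.4 and 15.3 with mivebresib. The risk panel gene ROBO1, an axon guidance receptor, had 1.84 and 2.26 CPM in the control, 3.68 and 3.64 with romidepsin, 12.2 and 12.9 with quisinostat and 18.3 and 20.8 with mivebresib. ANKRD1, CD274, NCAM1, KDR, MAGEA10, MAGEC1, PPARGC1A and HBA1 were also lower in the control.

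Proliferation genes were higher in the control by smaller amounts. All 27 DNA replication genes passed at an adjusted p below 0.05 with no fold threshold, and 23 of 25 mitosis genes did, beside 23.2% of all genes tested that were higher and 20.5% that were lower by that rule. The medians were 0.94 and 0.85, and RRM2, MCM5, MCM10 and GINS2 also passed the threshold of 1.5. Of the pigmentation genes, 11 of 19 were higher in the control by adjusted p alone, MITF by 1.03 ± 0.06, and BCAN was lower. EGR3 and CXCL10 were also higher in the control past 1.5. Each of these differences rests on the same 2 control libraries.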

How the data were processed

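Bulk RNA of MP38 cells was sequenced in 2 libraries per group (control, romidepsin, quisinostat, mivebresib). The labels name a strand-specific mRNA library with paired-end reads, which were analysed by the authors through BioJupies, with hg38 named in the submitters' processing notes. The aligner, annotation and strand setting are not given in the sources used here. The authors deposited raw counts per gene symbol for 35238 symbols, with 28483235 to 29359024 counts per library, a log10 table that equals log10(CPM + 1) of those counts, and a quantile-normalized table that was not used because its scale is not named. Each count carries counting error, for which 3 counts is the limit that a count of 0 allows.

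Here, CPM was computed on total counts, and exon lengths (union of exons) came from GENCODE 29 (GRCh38) for 27920 symbols, 521 of them by an older or newer symbol through RefSeq synonyms. Genes were kept by edgeR's default expression filter (15085), scaled by TMM and tested with edgeR 4.0.16 quasi-likelihood F-tests (R 4.3.3), Benjamini-Hochberg adjusted. The control libraries were compared as separate levels beside the 3 drug groups, and the control mean with the mean of the drug groups at an absolute log2 above 1.5. Log2 CPM values used a prior count of 2. The fits were tested on simulated data. Alternatives were DESeq2 1.42.0, limma-voom 3.58.1, other scaling, filters and left-out libraries, and, added after seeing the data, offsets for GC content and length (20 by 5 bins).

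Groups came from the sample titles. The control libraries and all gene lists were chosen with earlier results of these data known. Named are all pigmentation, risk panel, driver, HDAC and BET genes, the leading and silent members of the other lists, the highest genes, the 12 and 6 largest differences each way in the 2 comparisons, and list members that passed. Where a list called more, further members were named after their values were seen. Some genes that this rule names are not reported here.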

Additional observations from a re-analysis of the deposited data

How the results depend on the processing

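The comparison of the control libraries depended on settings. Against 842 higher and 463 lower genes, DESeq2 gave 879 and 631, limma-voom 751 and 392, upper-quartile factors 688 and 603, library size alone 640 and 719, a mean CPM of at least 5 gave 843 and 639, and GC and length offsets 696 and 412. No low-count filter left 0 and 0 (3939 at an unadjusted p below 0.05), a log2 difference of at least 1 left 22 and 46, and each drug pair in place of the control pair gave 0 and 0. Leaving out drug libraries gave 533 to 877 higher and 296 to 585 lower, with the lowest counts without quisinostat replicate 1 (542 and 302) or 2 (533 and 296). With the replicate block 0 and 0 genes passed (2378 at an unadjusted p below 0.05), and with the block and the GC and length offsets together 0 and 4. The deviations of same-numbered libraries had correlations of -0.16 to 0.16. The labels do not say whether equal numbers pair the samples. The block fit tested the control difference beyond the one shared by the drug pairs, on fewer residual degrees of freedom. Which of these changes removed the calls was not tested.

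Control against the drug mean gave 88 higher and 759 lower, and 35 and 165 where genes under a mean of 5 CPM were left out, so that fewer genes were tested. With no fold threshold the counts were 3498 and 3099, and with the replicate block 89 and 744. Leaving out 1 library gave 92 to 129 higher and 695 to 811 lower. Every other setting stayed within 1.5 times the counts given.

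The median absolute log2 difference of 0.233 in the control became 0.119, 0.111 and 0.131 for the drug pairs. No named gene that passed in either comparison reversed under any setting run. Exon length by median transcript in place of the union raised levels per kb by a median ratio of 3.79 and kept a Spearman rank correlation of 0.910 over 636 list genes. The order of the highest genes changed with it. With 2 libraries, levels under about 3 counts were not distinguishable from 0.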
